A study of Mus musculus with 8 samples.

Results

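The mature miRNAs miR-18a, miR-19a and miR-19b are cut from the primary transcript of the miR-17-92 cluster, miR-19b also from a locus on chromosome X. Together the 3 carry 2 seed families of that cluster. They were taken as the spots whose systematic name on the array was mmu-miR-18a, mmu-miR-19a or mmu-miR-19b, which gave 3 miRNAs of 611 mouse miRNAs on the array, by a rule that uses names and no measured value. The cells were basal progenitors, the neuron-producing precursors that lie above the ventricular zone of the developing cortex, from mouse embryos at embryonic day 13 (E13, 4 arrays) and embryonic day 16 (E16, 4 arrays). They were isolated by fluorescence-activated sorting, and 100 ng of total RNA per sample was labelled with cyanine-3 for a one-colour Agilent miRNA array. All samples carry the letters WT in their descriptions. Neither the strain nor the gate of the sort is stated. The design text counts 4 biological replicates per stage and 3 litters, so that replicates may share a litter. The p-values weigh each stage difference only against the spread between these samples, which may not be independent. In such bulk samples, fewer cells of a type and less RNA per cell cannot be told apart.

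The miR-17-92 cluster is transcribed as one long RNA, from which the nuclear enzyme Drosha cuts a row of hairpins that Dicer turns into mature miRNAs. A mature miRNA finds its targets mainly through its seed, the bases from position 2 to 8, so that miRNAs of one cluster with different seeds act on different sets of mRNAs. The cluster is known for promoting proliferation, also of neural progenitors. Steps after transcription can set the level of each miRNA of a cluster apart from that of its neighbours.

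The mature sequences are printed to show the seeds that are compared, with seed bases in capitals (RefSeq, GRCm38.p6).
miR-18a-5p: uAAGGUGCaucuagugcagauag
miR-19a-3p: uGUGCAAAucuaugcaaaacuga
miR-19b-3p: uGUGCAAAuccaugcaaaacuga
miR-20a-5p: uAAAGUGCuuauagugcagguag
The seed of miR-18a was shared with 1 other RefSeq mouse miRNA, miR-18b-5p, and that of miR-19a with miR-19b-3p alone. miR-19a and miR-19b differed at 1 of 23 bases, outside the seed (U11C, counted from the 5′ end, miR-19a first). miR-20a, from the same transcript, is shown because its seed, that of the miR-17 family, differed from the seed of miR-18a at 1 base (G4A, miR-18a first).

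Each of the 3 miRNAs was measured by a pair of probes that ended 1 base apart, each probe in 10 spots per array. The brighter probe of each pair, which stood for its miRNA, is printed to show where miR-19a and miR-19b can be told apart (sequences from the deposited scanner files, the base opposite position 11 of miR-19 in capitals).
miR-18a probe: ctatctgcactagatgcac
miR-19a probe: tcagttttgcatAgatttgca
miR-19b probe: tcagttttgcatGgatttgc
The miR-18a probe of 19 bases pairs with bases 5 to 23 of its miRNA, the miR-19a probe of 21 bases with bases 3 to 23 and the miR-19b probe of 20 bases with bases 4 to 23. Each miR-19 probe has 1 mismatch to the other miR-19, so that the 2 can share signal. Set at the same positions, the miR-18a probe has 16 mismatches to miR-19a and 15 to miR-19b. To miR-18b it has only 2, and miR-20a differs from miR-18a at positions 9, 11 and 20 of the bases it covers. Whether miR-18b or miR-20a adds to its signal was not tested.

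The hairpins are shown because both arms of one were measured, and because miR-19b comes from 2 loci (RefSeq, GRCm38.p6, Mir18 and Mir19b-1 on the plus strand of chromosome 14, Mir19b-2 on the minus strand of chromosome X, mature arms in capitals).
Mir18: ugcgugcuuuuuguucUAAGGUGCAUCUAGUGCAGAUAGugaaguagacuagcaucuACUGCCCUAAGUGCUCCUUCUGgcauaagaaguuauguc
Mir19b-1: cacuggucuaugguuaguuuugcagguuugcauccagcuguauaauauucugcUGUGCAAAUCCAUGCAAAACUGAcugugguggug
Mir19b-2: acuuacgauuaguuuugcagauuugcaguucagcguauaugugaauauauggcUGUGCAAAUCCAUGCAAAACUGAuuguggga
In mm9, the build of the scanner files, the probe match of miR-18a lay at chr14:115443094-115443111, that of miR-19a at chr14:115443273-115443292 and that of miR-19b at chr14:115443583-115443602. The ends of the miR-18a and miR-19a matches were 181 bases apart, and those of miR-19a and miR-19b 310 bases. The miR-19b probe also matched chrX:50095216-50095235, in the paralogous miR-106a-363 cluster, and its signal is the sum of both loci. The exons of the long non-coding RNA gene Mir17hg in the RefSeq annotation were not used here.

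The arrays differed in brightness. The 75th percentile of the processed (background-subtracted) signal, over the probes detected on all 8 arrays, ran from 162 to 490 at E13 and from 109 to 748 at E16, where replicate 4 was the dimmest and replicate 2 the brightest. An array detected between 76 and 206 mouse miRNAs as well above background. Signals were therefore divided by that percentile, and levels below are log2 of the scaled signal. Of the 33 markers of neural and other cell types looked for, the neural miR-9, miR-9* and miR-124 were well above background on every array. The 28 markers of red cells, white cells and microglia, endothelium, muscle, epithelium, pericytes and mesenchyme, and hindbrain and spinal cord were so on none. Both oligodendrocyte markers, miR-219 and miR-338-3p, were above background on some arrays of each stage, with a summed processed signal of 38.8 to 111 at E13 and 10.5 to 161 at E16, and their part in the results was not tested. Row 2 of the slides held the E13 arrays and row 1 the E16 arrays, and hence the row cannot be told apart from the stage. The 3 slides were scanned on 3 days, which makes slide and scan day one batch.

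All 3 miRNAs were detected on every array. Of their 480 spots, 471 had no outlier flag and 467 of these were well above background. The other 4 were spots of the dimmer miR-18a probe on E16 replicate 4, where that probe averaged 10.1. The coefficient of variation between spots of a brighter probe on one array had a median of 4.85% for miR-18a, 8.72% for miR-19a and 8.67% for miR-19b. Each value is a mean of up to 10 such spots.

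The level of miR-18a was lower at E16 than at E13, on the scale of detected probes. Its processed signal was 181, 252, 533 and 309 on E13 replicates 1 to 4 and 312, 333, 158 and 35.1 on E16 replicates 1 to 4. After scaling, the log2 levels were 0.16, -0.33, 0.12 and 0.07 at E13 and -0.96, -1.17, -0.83 and -1.63 at E16. All 4 E16 arrays lay below all 4 E13 arrays, with E13 replicate 2 the lowest of its stage and E16 replicate 4 the lowest of all. The mean fell from 0.0056 ± 0.23 to -1.15 ± 0.35 (SD, n = 4 each), which is 2.23-fold (log2 difference -1.15, SE 0.21, 95% confidence interval -1.63 to -0.67, limma adjusted p = 0.0023 over 153 tested miRNAs). Of the tested miRNAs 26.1% were called lower at E16 and 38.6% had stages without overlap. miR-18a ranked 25 of 153 from the largest fall.

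miR-19a, the miRNA that follows miR-18a in the transcript, did not pass the test. Its processed signal was 147, 165, 463 and 305 at E13 and 454, 401, 217 and 43.6 at E16. The scaled log2 levels were -0.15, -0.94, -0.08 and 0.06 at E13 and -0.42, -0.90, -0.38 and -1.32 at E16. The stages overlapped, because E13 replicate 2 lay below 3 of the 4 E16 arrays. The means were -0.28 ± 0.45 and -0.75 ± 0.44 (SD, n = 4 each), with a log2 difference of -0.48 (SE 0.29, 95% confidence interval -1.13 to 0.18, limma adjusted p = 0.21).

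miR-19b, which has the same seed, did not pass either. Its processed signal was 814, 1015, 2660.4 and 1659 at E13 and 2804, 2951, 1523 and 333 at E16. The scaled log2 levels were 2.33, 1.68, 2.44 and 2.50 at E13 and 2.20, 1.98, 2.43 and 1.61 at E16. The stages overlapped over nearly their whole range, and the lowest arrays of each stage were those on which miR-18a and miR-19a were lowest too. The means were 2.24 ± 0.38 and 2.06 ± 0.35 (SD, n = 4 each), with a log2 difference of -0.18 (SE 0.24, 95% confidence interval -0.73 to 0.38, limma adjusted p = 0.60). The interval covers differences in both directions.

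**Figure D1:**
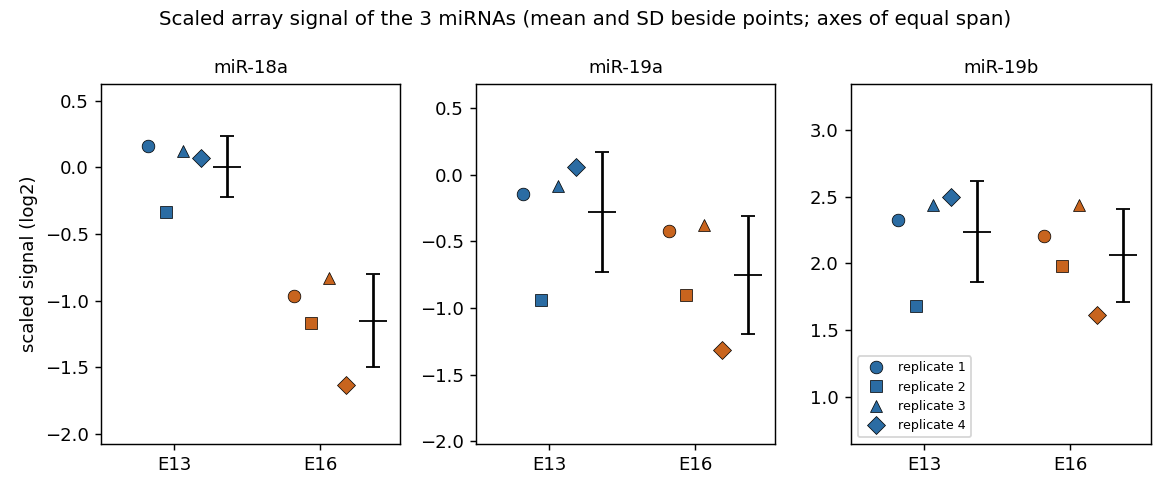
Scaled signal (log2, vertical axis) of miR-18a, miR-19a and miR-19b on each of the 4 E13 and 4 E16 arrays, one symbol per replicate number, with the mean and SD beside the points and axes of equal span. The E16 arrays of miR-18a, from -1.63 to -0.83, lie below all its E13 arrays, whereas the stages overlap for miR-19a and miR-19b.

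These differences depended on how the arrays were scaled. Over the 153 tested miRNAs the median log2 difference was -0.40, with 11 called higher (7.19%) and 40 lower. With the percentile taken over all mouse probes, most of them near background, that median was 0.42, with 47 called higher and 16 lower. On that scale miR-18a was at -0.33 (limma adjusted p = 0.21), miR-19a turned to 0.34 (adjusted p = 0.29) and miR-19b turned to 0.64 and was called higher (adjusted p = 0.035), where 30.7% of the tested miRNAs were. Relative to the median of all tested miRNAs, miR-18a lay at -0.75, miR-19a at -0.08 and miR-19b at 0.22 under both, since the change of percentile moved all miRNAs nearly alike. After quantile normalization, which does not, they lay at -1.09, -0.31 and -0.27, after normexp correction at -0.90, -0.29 and -0.31, and in the deposited value table at -1.07, -0.29 and -0.19. miR-19b thus turned from above to below the median, and of the 3 miR-18a lay farthest below it under each of these settings.

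**Figure D2:**
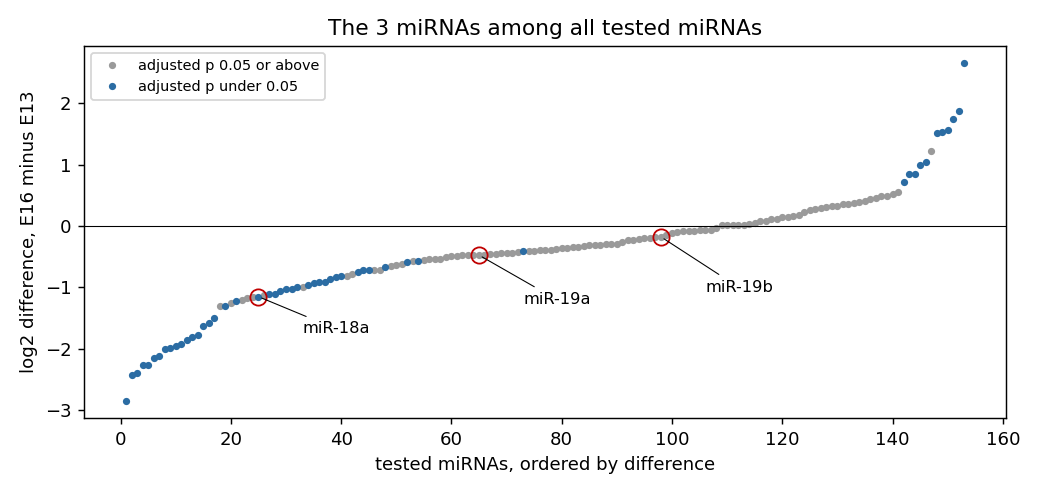
Log2 difference (E16 minus E13, vertical axis) of the 153 tested miRNAs in order of size, with calls at an adjusted p under 0.05 in blue. Circles mark miR-18a at -1.15, miR-19a at -0.48 and miR-19b at -0.18, which lie from the lower part to the middle of the range.

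The ratio of 2 miRNAs on the same array does not depend on the factor that scales the array. Ratios with miR-19b still take in the signal of both its loci, on chromosomes 14 and X. miR-18a fell relative to both miR-19 miRNAs. The log2 ratio of miR-18a to miR-19a was 0.31, 0.61, 0.20 and 0.02 on the E13 arrays and -0.54, -0.27, -0.45 and -0.31 on the E16 arrays. The ratio of miR-18a to miR-19b was -2.17, -2.01, -2.32 and -2.42 at E13 and -3.17, -3.15, -3.27 and -3.24 at E16. Neither ratio had any overlap between stages, and their E16 arrays lay close together although they included the brightest and the dimmest array of the series. A ratio between probes shows unequal change and not which miRNA is the more abundant.

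The change in the ratio of miR-18a to miR-19b was -0.98 on the log2 scale, from -2.23 ± 0.18 to -3.21 ± 0.06 (SD, n = 4 each), or 1.97-fold (p = 0.029, exact permutation of the 8 arrays in 70 ways, two-sided). The change in the ratio of miR-18a to miR-19a was -0.68, from 0.28 ± 0.25 to -0.39 ± 0.13 (SD, n = 4 each, exact p = 0.029). Against the mean of miR-19a and miR-19b it was -0.83, from -0.97 ± 0.21 to -1.80 ± 0.07 (SD, n = 4 each, exact p = 0.029). All 4 ratios computed had this p, the smallest that the test can give, also after Benjamini-Hochberg adjustment over the 4. Such separation was common in these data, since 32.8% of the 2775 ratios between the 75 miRNAs detected on all arrays had stages without overlap. For miR-18a 52 of its 74 ratios did (70.3%), for miR-19a 21 (28.4%) and for miR-19b 17 (23.0%), beside a median of 22 over the 75 miRNAs.

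The ratio of miR-18a to miR-19a changed by -0.82 within slide 2, which held 2 arrays of each stage, and by -0.42 within slide 3, where E16 replicate 4 was the only array of its stage. The ratio of miR-18a to miR-19b changed by -1.12 within slide 2 and by -0.87 within slide 3. Within slide 2 the level of miR-18a itself did not pass the test (-0.91, limma adjusted p = 0.065), miR-19a was at -0.09 and miR-19b turned to 0.20. Within slide 3 the 3 levels differed by -1.73, -1.30 and -0.85, beside a median of -0.76 over all tested miRNAs. Limma, with the single E16 array assumed to vary like the others, called 88 of 153 miRNAs lower there (57.5%), these 3 included, and that array was the dimmest of the series. Both miR-18a ratios had the same direction within slides 2 and 3.

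**Figure D3:**
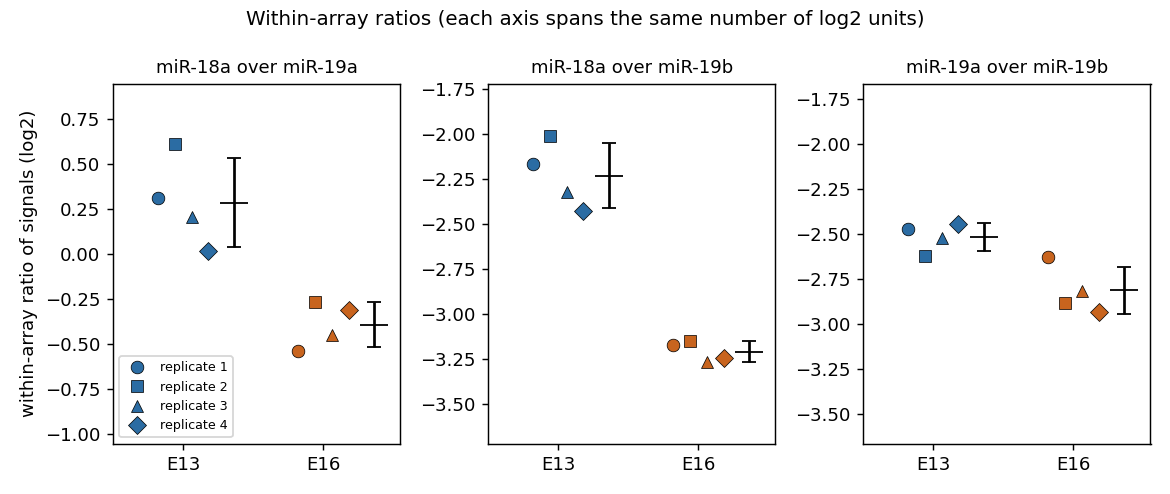
Within-array log2 ratios (vertical axis) of miR-18a to miR-19a, of miR-18a to miR-19b and of miR-19a to miR-19b on the 4 E13 and 4 E16 arrays, with the mean and SD beside the points and axes of equal span. The ratio of miR-18a to miR-19b lies between -2.42 and -2.01 at E13 and between -3.27 and -3.15 at E16.

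Within the miR-19 seed, the ratio of miR-19a to miR-19b was lower at E16 as reported here, by less than the miR-18a ratios. The log2 ratio of miR-19a to miR-19b was -2.47, -2.62, -2.52 and -2.44 at E13 and -2.63, -2.88, -2.81 and -2.93 at E16. E13 replicate 2 and E16 replicate 1 nearly touched. The mean ratio changed by -0.30, from -2.52 ± 0.08 to -2.81 ± 0.13 (SD, n = 4 each, exact p = 0.029). This change did not hold under other normalizations, with -0.039 after quantile normalization (exact p = 0.91), -0.10 in the deposited value table (exact p = 0.57) and 0.022 after normexp correction (exact p = 0.86). As printed above, the probes for this pair differ at 1 base within the miRNA and by 1 base in length, and only miR-19b has a second locus.

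The second probe of each miRNA had a difference close to that of the first. The dimmer miR-18a probe, 1 base shorter, had a log2 difference of -1.18, that of miR-19a of -0.45 and that of miR-19b of -0.17. The brighter miR-18a probe gave a median of 3.15 times the signal of the dimmer one at E13 and 3.18 times at E16. For miR-19a the factor was 2.13 and 2.10, and for miR-19b 7.79 and 7.75. Over the 4 choices of probes the ratio of miR-18a to miR-19a changed by -0.73 to -0.68, and that of miR-18a to miR-19b by -1.01 to -0.98. The probes of a pair share a target and are not replicates.

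The other arms of the transcript were examined to place the 3 miRNAs within their locus. Of 11 listed arms of the locus on the array, 9 were tested, of which 4 were called lower at E16 and 5 did not pass. All 9 had negative log2 differences on this scale, with a median log2 difference of -0.48 beside -0.40 over all tested miRNAs. The smallest, -0.08 for miR-20a*, included E16 replicate 4 at the floor of the scale (log2 -5.96). It turned to 0.53 after quantile normalization and to 0.09 after normexp correction. miR-20a* was well above background on only 2 E13 and 3 E16 arrays. Of the 153 tested miRNAs 26.1% were called lower. The second arm of the Mir18 hairpin, miR-18a*, was at -4.14, -4.55, -4.57 and -4.14 at E13 and -5.37, -5.51, -5.26 and -5.29 at E16, again without overlap. Its mean fell from -4.35 ± 0.24 to -5.35 ± 0.11 (SD, n = 4 each, SE of the difference 0.17, limma adjusted p = 0.0013). It was well above background on only 3 E13 and 2 E16 arrays. Its log2 difference was -0.18 once scaled to all mouse probes, -0.30 after quantile normalization and -0.05 after normexp correction. miR-19a*, the second arm of the miR-19a hairpin, was not well above background on any array, with a highest probe signal of 3.19. miR-92a*, not detected either, had probes that match chromosome X only. The second arm of miR-19b-1 was not measured on this array. When scaled to all mouse probes, these 9 had a median of 0.34, with 1 call, that of miR-19b as higher.

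Of the arms with the miR-17 seed, miR-17 was at -1.03 (SE 0.30, well above background on 3 arrays of each stage, limma adjusted p = 0.026) and miR-20a at -0.47 (SE 0.18, limma adjusted p = 0.072). miR-92a, the last of the transcript, was at -0.66 (SE 0.18, limma adjusted p = 0.017). The probes of miR-17 and miR-92a, like those of miR-19b, also match the X-linked cluster, and their signals are not of this transcript alone. miR-17* was at -0.48 (SE 0.25) and miR-20a* at -0.08 (SE 0.43), and neither passed. Scaled to all mouse probes, miR-17 was at -0.21 and miR-20a, miR-17*, miR-92a and miR-20a* turned to 0.35, 0.34, 0.16 and 0.70. The processed signal of miR-17 was low, from 1.84 to 31.6 over the arrays. Its log2 difference was -0.35 after quantile normalization and -0.07 after normexp correction, beside -0.78 for miR-92a after either.

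**Figure D4:**
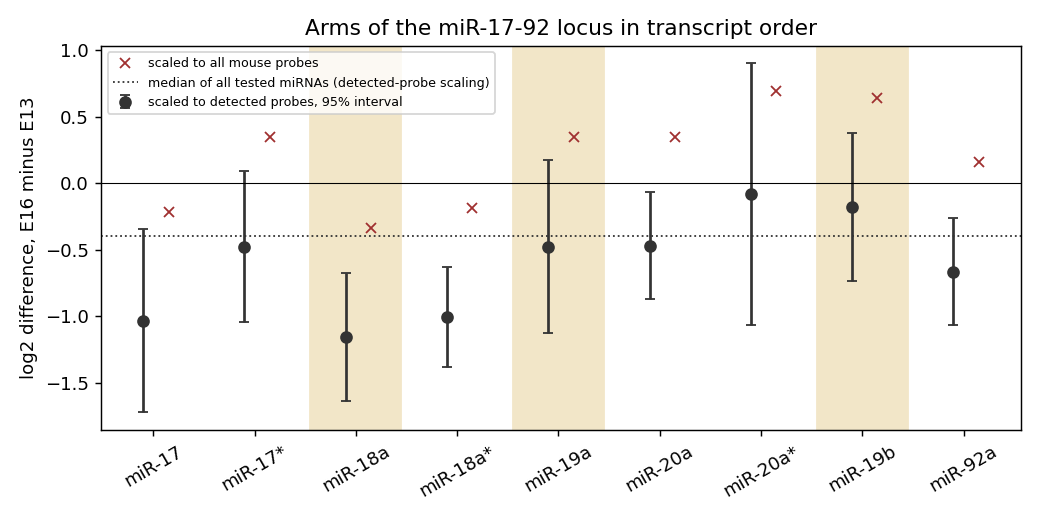
Log2 difference (E16 minus E13, vertical axis) of the 9 tested arms of the miR-17-92 locus in transcript order, with 95% confidence intervals for the scaling to detected probes and crosses for the scaling to all mouse probes. The shaded miR-18a, miR-19a and miR-19b lie at -1.15, -0.48 and -0.18, and all crosses lie above their circles.

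Ratios among the 6 locus arms detected on all arrays, described after the values were seen and without a test, covered 15 pairs. Of these, 6 had stages without overlap, beside 32.8% over all pairs of miRNAs. Among the 6, 4 were the ratios of miR-18a to miR-17*, miR-19a, miR-20a and miR-19b. The log2 ratio of miR-18a to miR-20a, its relative with a seed 1 base apart, went from -1.59 ± 0.06 to -2.27 ± 0.11 (SD, n = 4 each). The ratio of miR-18a to miR-92a overlapped, at -1.95 ± 0.43 and -2.45 ± 0.54. The ratio of miR-19a to miR-20a was -1.87 ± 0.28 at E13 and -1.88 ± 0.23 at E16. The ratio of miR-20a to miR-19b went from -0.64 ± 0.20 to -0.93 ± 0.12, with stages that nearly touched.

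The paralogues were listed by cluster, as arms of the related clusters on chromosomes X and 5, and not by seed. Among them miR-18b was not well above background on any array, with a highest probe signal of 7.18. The miR-18 seed was therefore measured through miR-18a alone. Of 9 paralogues on the array 4 were tested, of which 1 was called lower, beside 26.1% over all tested miRNAs. This was miR-20b of the X-linked cluster, with the miR-17 seed, at -0.57 (SE 0.17, limma adjusted p = 0.027). miR-93 was at -0.31, miR-25 at -0.23 and miR-106b at 0.01. Scaled to all mouse probes, these 4 were at 0.25, 0.51, 0.59 and 0.83, and miR-106b was called higher (limma adjusted p = 0.021), beside 30.7% of all tested miRNAs. miR-363, another X-linked neighbour, was above background on 1 E13 array and no E16 array.

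The 3 miRNAs also moved together from array to array within a stage. Their deviations from the stage means correlated at 0.94 for miR-18a with either miR-19 and at 0.98 for miR-19a with miR-19b (Pearson, 8 arrays, which share the scaling factor of each array). The probes of miR-19a and miR-19b can also share signal, and its part in these correlations and in the lists below was not tested. No value for other pairs of miRNAs was set beside the correlations, so that they do not show a movement particular to the 3. Over all 8 arrays the miRNAs most like miR-18a among 150 others were miR-124* (Pearson r = 0.99), miR-20b (0.99) and miR-449a (0.98), with log2 differences of -0.86, -0.57 and -2.86. Those most like miR-19a were miR-301a (0.98), miR-140 (0.93) and miR-219 (0.92), with differences of -0.51, -0.45 and -0.44. Those most like miR-19b were miR-9 (0.97), miR-301a (0.90) and miR-22 (0.89), with differences of -0.09, -0.51 and -0.03. These lists describe likeness over 8 arrays and carry no test. miR-18a and miR-19b had no name in common, while miR-301a stood in both miR-19 lists.

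**Figure D5:**
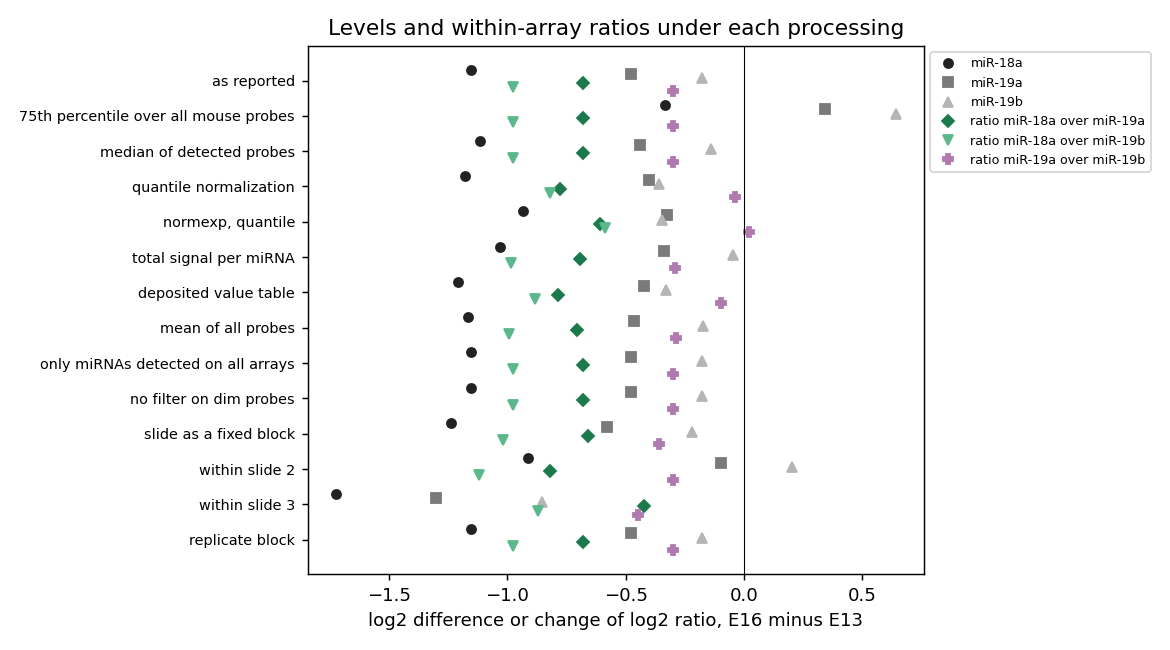
Log2 difference of each miRNA and change of each within-array log2 ratio (E16 minus E13, horizontal axis) under each processing setting, without the settings that leave out an array. The ratios of miR-18a to miR-19a and to miR-19b stay between -1.12 and -0.42, whereas the levels of miR-19a and miR-19b lie on both sides of 0.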

How the data were processed

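The authors deposited one Agilent scanner file per array and a value table. Per the file headers, Feature Extraction 10.7.3.1 gave the deposited intensity values (spot mean, local background, processed signal and total signal per miRNA), unscaled between arrays, and flags of 0 or 1, a separate kind of other value. The deposited value table holds log2 values of 1187 spots. Its columns rank spots as the processed signals do and share one median (6.90). No source used here names its software, and it served as an alternative.

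Spots without outlier flags (2 kinds) were averaged per probe, scaled to the 75th percentile of the 126 probes well above background on all 8 arrays, floored (log2 -5.96) and logged. The probe with the highest mean stood for its miRNA. The 153 miRNAs well above background on at least 4 arrays were tested with limma 3.58.1 in R 4.3.3, two-sided p-values adjusted after Benjamini-Hochberg and called under 0.05, after tests on simulated data. Within-array ratios were tested by exact permutation. Named are the 3 miRNAs, their locus and paralogues, and the 3 miRNAs most like each. Members and lists were chosen with earlier results of these data known. Precision is limited by 4 arrays per stage.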

Additional observations from a re-analysis of the deposited data

Results flagged for a closer look

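Among 34 sets of 4 arrays examined for the 3 miRNAs, their ratios and their relatives, 1 held an array far from the others, where chance flags about 1 set in 20. It was miR-20a at E13, with 1.32 on replicate 2 against 1.67 to 1.69 on the other E13 arrays (scaled log2). E13 replicate 2 was also the lowest E13 array for miR-18a, miR-19a and miR-19b, none of which was far enough out to be flagged. Without E13 replicate 2 the log2 difference was -1.27 for miR-18a, -0.70 for miR-19a and -0.36 for miR-19b.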

How the results depend on the processing

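The fall of miR-18a kept its direction under all 21 alternatives and lost its call under 2 of them, scaling to all mouse probes (-0.33) and slide 2 alone (-0.91). miR-19a turned under scaling to all mouse probes (0.34) and was at -1.30 within slide 3. miR-19b turned under that scaling (0.64) and within slide 2 (0.20) and was at -0.85 within slide 3. Both passed within slide 3, where 1 E16 array stood for its stage and 88 of 153 miRNAs (57.5%) were called lower. The ratio of miR-18a to the mean of both miR-19 ran from -0.97 to -0.60 over its 29 alternatives and was -0.65 within slide 3. The ratio to miR-19a was -0.42 within slide 3 and that to miR-19b -1.12 within slide 2 and, at its smallest, -0.59 with normexp correction. The ratio of miR-19a to miR-19b was -0.039 with quantile normalization, 0.022 with normexp correction, -0.29 with the total signal per miRNA (exact p = 0.057), -0.10 in the deposited value table and -0.45 within slide 3. The cause of these changes was not tested. Leaving out each array in turn gave -1.27 to -0.99 for miR-18a, -0.70 to -0.29 for miR-19a, -0.36 to -0.03 for miR-19b, -0.90 to -0.74 for the ratio to both miR-19, -0.77 to -0.57 to miR-19a, -1.04 to -0.90 to miR-19b and -0.36 to -0.26 for miR-19a to miR-19b. The smallest values of miR-19a and miR-19b came without E16 replicate 4.

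Of the locus miRNAs 4 were called lower, against 0 by limma when scaled to all mouse probes, 8 of 9 within slide 3, 2 to 4 with an array left out (2 without E13 replicate 1) and 2 with quantile normalization, the total signal, only miRNAs detected on all arrays, no filter, the slide as a fixed block, or slide 2 alone. The list median of -0.48 turned to 0.34 when scaled to all mouse probes, was -1.04 within slide 3 and lay between -0.63 and -0.35 with an array left out. At an unadjusted p under 0.05, 0 locus miRNAs were lower on that scale. Over all miRNAs 51 were called, against 27 with the total signal, 24 of 86 in the deposited value table, 19 of the 75 detected on all arrays, 102 of 153 within slide 3 and 30 to 71 with an array left out (33, 30 and 32 without E13 replicates 1, 3 and 4). Deviations of same-numbered arrays correlated at -0.15 to 0.27, within the -0.42 to 0.38 of the other pairs of arrays. With 4 arrays per stage this cannot decide whether the numbers pair the samples, which is not stated. With the replicate number as a block 45 miRNAs were called and miR-18a stayed called (-1.15, limma adjusted p = 0.0090). The dimmest array, E16 replicate 4, limits miR-18a* and the other arms near background.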
